A study of Mus musculus with 7 samples.

Results

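The accessible chromatin of mouse intestine at embryonic day 13 (E13) was set against that of colon at embryonic day 16 (E16), with 1 ATAC-seq peak list per group. Overlapping peaks of both lists on chromosomes 1 to 19 and X were merged, and each merged region was classed as E13-only, colon-only or shared by the list or lists that had a peak in it. This gave 187797 regions, beside 326695 when all 7 libraries of the series were merged the same way. Both libraries came from ShhCre; R26YFP/+ embryos, in which Cre made where Shh is active switches on a yellow reporter. At E13 intestines were separated from stomachs and digested with trypsin for 10 minutes, a dead-cell dye was added, and 50000 sorted cells from 3 to 4 reporter-positive embryos were pooled. At E16 colon epithelium was loosened in 5 mM EDTA for 30 to 40 minutes in the cold and shaken free, and the protocol text ends before it says whether its cells were sorted. Stage, gut segment and isolation thus all differ between the libraries and cannot be told apart. The other 5 libraries describe the regions but took no part in the classing: E13 stomach (isolated like the E13 intestine), E16 forestomach, hindstomach and proximal small intestine from the same genotype, and E16 stomach with a Sox2 knockout, whose alleles and isolation the labels do not describe.

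ATAC-seq uses a transposase that inserts into DNA not wrapped on nucleosomes, so its peaks mark promoters and distal regulatory elements that are open. The gut tube is patterned along its length by transcription factors: SOX2 in the foregut, CDX2 in the future intestine, and HOX proteins in overlapping domains, with the HOX13 group at the hind end. The colon later builds crypts with stem cells, absorptive colonocytes and many mucus-secreting goblet cells, under Wnt, Notch, BMP and Hedgehog signals that pass between epithelium and mesenchyme.

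Promoters from each class are shown first, so that the sequence can be read beside the peak widths. The 250 bases before a RefSeq transcription start (GRCm38.p6, written in the direction of the gene) are printed for 6 genes that were chosen after their values were seen. Capitals mark each match to GGGCGG or its complement, the GC box bound by SP and KLF factors.
Cdx2 and the upstream Hnf4a start, promoters of intestinal transcription factors with a peak in both libraries, lie at chr5:147307250-147307499 (minus strand) and chr2:163506607-163506856 (plus strand).
Cdx2: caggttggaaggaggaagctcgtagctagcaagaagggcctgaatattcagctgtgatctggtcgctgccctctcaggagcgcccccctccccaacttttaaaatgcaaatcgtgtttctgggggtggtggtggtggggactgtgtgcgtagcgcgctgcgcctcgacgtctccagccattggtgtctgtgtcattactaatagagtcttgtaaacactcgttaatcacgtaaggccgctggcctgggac
Hnf4a upstream start: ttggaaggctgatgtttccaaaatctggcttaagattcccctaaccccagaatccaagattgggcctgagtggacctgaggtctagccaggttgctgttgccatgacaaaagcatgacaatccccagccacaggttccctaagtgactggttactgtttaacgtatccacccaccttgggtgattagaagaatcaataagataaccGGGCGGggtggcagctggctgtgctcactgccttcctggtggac
The downstream Hnf4a start (chr2:163546905-163547154, plus strand), Epcam, an epithelial adhesion gene (chr17:87635729-87635978, plus strand), and Hoxd13, a hindgut patterning gene (chr2:74667975-74668224, plus strand), had a peak in E13 intestine and none in colon.
Hnf4a downstream start: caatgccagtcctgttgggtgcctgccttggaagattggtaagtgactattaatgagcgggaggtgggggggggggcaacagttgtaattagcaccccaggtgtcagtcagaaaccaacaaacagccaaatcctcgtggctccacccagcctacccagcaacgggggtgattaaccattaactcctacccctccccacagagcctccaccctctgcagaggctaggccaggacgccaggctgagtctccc
Epcam: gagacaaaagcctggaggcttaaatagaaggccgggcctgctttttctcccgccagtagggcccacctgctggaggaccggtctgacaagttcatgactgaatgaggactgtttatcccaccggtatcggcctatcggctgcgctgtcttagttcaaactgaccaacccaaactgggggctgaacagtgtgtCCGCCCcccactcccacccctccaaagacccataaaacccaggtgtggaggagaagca
Hoxd13: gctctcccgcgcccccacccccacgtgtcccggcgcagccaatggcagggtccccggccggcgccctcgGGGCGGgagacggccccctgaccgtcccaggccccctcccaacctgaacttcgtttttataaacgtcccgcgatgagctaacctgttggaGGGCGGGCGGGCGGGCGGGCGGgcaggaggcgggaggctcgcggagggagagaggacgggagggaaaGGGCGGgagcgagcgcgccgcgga
Guca2a, the peptide guanylin of the colon surface (chr4:119637482-119637731, plus strand), and Agr2, a protein-folding enzyme needed for mucin (chr12:35992675-35992924, plus strand), had a peak in colon and none in E13 intestine.
Guca2a: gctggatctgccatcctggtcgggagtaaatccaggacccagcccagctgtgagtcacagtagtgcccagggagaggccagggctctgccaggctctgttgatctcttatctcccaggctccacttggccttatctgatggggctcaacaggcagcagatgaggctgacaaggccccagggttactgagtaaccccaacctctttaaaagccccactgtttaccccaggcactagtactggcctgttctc
Agr2: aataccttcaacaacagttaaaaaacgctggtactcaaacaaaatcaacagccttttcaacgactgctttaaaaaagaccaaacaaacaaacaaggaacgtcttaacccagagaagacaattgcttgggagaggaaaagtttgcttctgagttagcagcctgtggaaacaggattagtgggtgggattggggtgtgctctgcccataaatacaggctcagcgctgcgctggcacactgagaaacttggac
Hoxd13 carried 7 matches and 31 CpG sites in these 250 bases, Epcam 1 match and 8 CpG sites, and Guca2a no match and 1 CpG site.

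The peaks over these starts varied in width from library to library. Over the Cdx2 start the peak was 374 bp wide in E13 intestine, 559 bp in colon, 434 bp in E16 intestine, 183 bp in hindstomach and 122 bp in the Sox2 knockout, with none in E13 stomach or forestomach. The intestinal libraries thus had the widest peaks at the intestinal master regulator. Over the upstream Hnf4a start all 7 libraries had a peak, with widths between 193 bp (E13 intestine) and 473 bp (hindstomach), and 199 bp in colon. The downstream start of the same gene had narrower peaks, of 102 bp in E13 intestine, 117 bp in E13 stomach, 108 bp in forestomach, 87 bp in E16 intestine and 124 bp in the knockout, and none in colon or hindstomach. Epcam had a promoter peak of 248 bp in E13 intestine, 292 bp in E13 stomach and 256 bp in the knockout, while none of the 4 wild-type E16 libraries had one. Hoxd13 had a peak of 96 bp in E13 intestine and of 126 bp in E13 stomach only. At Guca2a the peak was 421 bp in colon, 339 bp in E16 intestine, 352 bp in hindstomach, 285 bp in forestomach and 214 bp in the knockout, and only the E13 libraries lacked one. Agr2 had 137 bp in colon and 401 bp in forestomach, with peaks also in hindstomach, the knockout and E13 stomach, and none in E13 or E16 intestine.

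Few regions had a peak in both libraries. Of the 187797 regions, 52533 (28.0%) were E13-only, 108051 (57.5%) colon-only and 27213 (14.5%) shared, so the Jaccard index, the shared part of all regions, was 0.145. Colon-only regions outnumbered E13-only ones by 2.06 to 1. The colon list was the longer, with 135743 peaks (22.2 Mb, median width 124 bp) against 81179 (11.9 Mb, 108 bp), and the smallest peak was 86 bp in colon and 62 bp in E13 intestine. At equal list length both unshared counts are nearly equal by construction, so they do not show whether an excess remains. Here only the colon list was cut, as 81179 peaks are the whole E13 list. The widest 81179 peaks of each gave 57461 E13-only and 58603 colon-only regions, and random thinning gave 63878 and 64533. The files hold positions only, so depth and peak height are unknown, and each group had a single library without replicates, and differences between them carry no test. Intervals given below are 95% Wilson limits, which reflect only the number of regions counted.

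The share of peaks held in common rose with peak width. In E13 intestine 35.3% of peaks overlapped a colon peak, from 16.4% in the narrowest of 4 equal parts of the list to 68.4% in the widest. In colon 20.4% overlapped an E13 peak, from 8.50% to 42.1% over the same parts. Merged shared regions had a median width of 253 bp, E13-only regions 90 bp and colon-only regions 115 bp. A shared region joins peaks of both lists, so its merged width is larger by construction. Within shared regions the widest E13 peak had a median of 175 bp and the widest colon peak 191 bp.

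**Figure D1:**
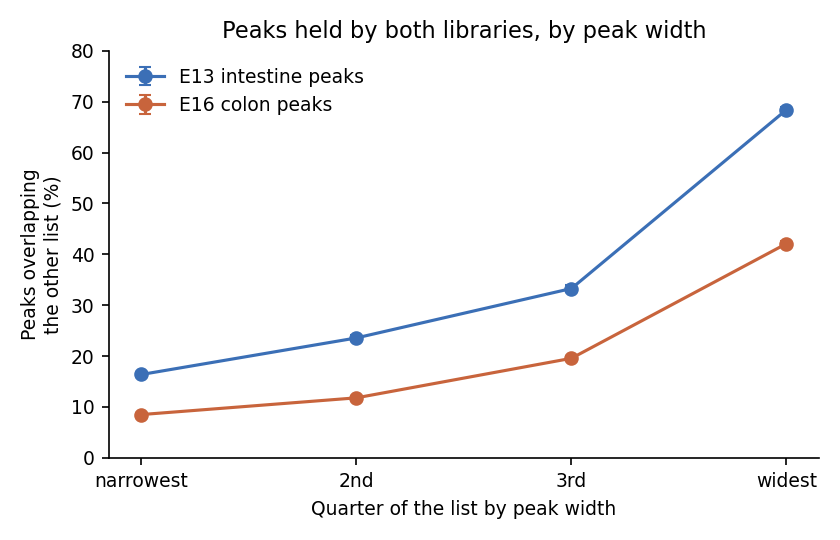
Share of peaks (y axis, %) that overlap a peak of the other library, in 4 equal parts of each list by peak width (x axis), for E13 intestine and E16 colon. Error bars are 95% Wilson intervals; both lines climb with width, to 68.4% for the widest E13 peaks and 42.1% for the widest colon peaks.

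The classes lay in different places along the genome. A gene end is taken as the 1 kb around the start or the stop of a coding gene. At gene ends lay 15.2% of E13-only regions (14.9 to 15.5), 3.36% of colon-only regions (3.25 to 3.47) and 36.3% of shared regions (35.7 to 36.9). There the order of the classes turned: 7963 regions were E13-only and 3629 colon-only, or 0.456 colon-only regions for each E13-only one. From 1 to 5 kb the ratio was 1.80, and it climbed through 2.22 (5 to 20 kb) and 2.36 (20 to 100 kb) to 2.65 beyond 100 kb. The Jaccard index was 0.460 at gene ends and 0.104 away from them. Gene bodies held 50.01% of E13-only, 41.7% of colon-only and 62.7% of shared regions. With the widest peaks at equal list length the gene-end shares were 15.9% for E13-only and 3.37% for colon-only regions, and after random thinning they were 18.9% and 3.33%.

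**Figure D2:**
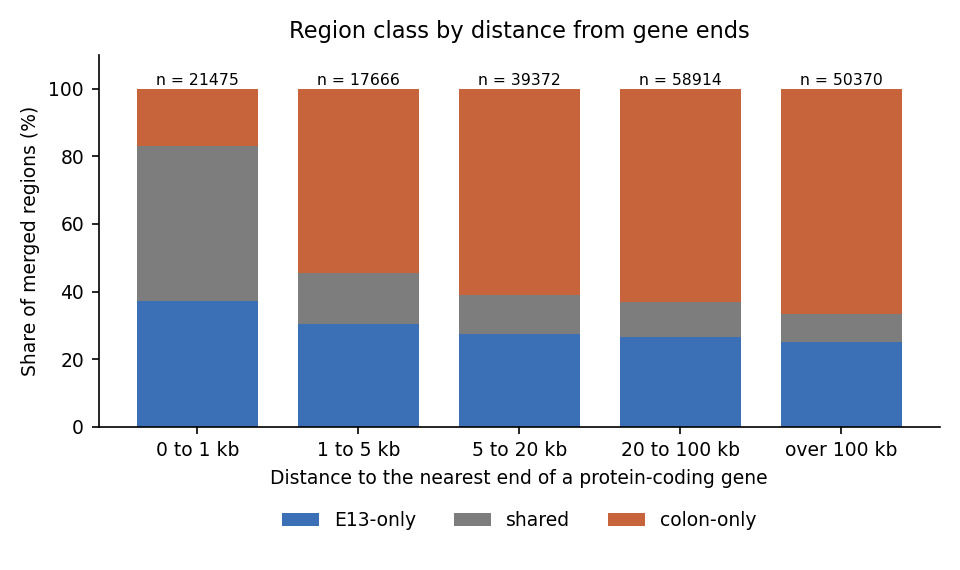
Share of merged regions (y axis, %) that are E13-only, shared or colon-only, by distance from the nearest end of a protein-coding gene (x axis), with the number of regions above each bar. The colon-only share is 16.9% within 1 kb and 66.8% beyond 100 kb.

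Promoters showed the same contrast gene by gene. A promoter window here is the 300 bases from 250 before to 50 after a RefSeq start, and 17273 genes had one. In 7198 genes (41.7%) both libraries had a peak in a window, in 2584 (15.0%) only E13 intestine, in 306 (1.77%) only colon, and in 7185 (41.6%) neither. Over all 7 libraries the share of genes with a promoter peak ran from 43.4% in colon, through 47.3% in E16 intestine, 50.4% in forestomach, 54.1% in hindstomach, 56.6% in E13 intestine and 59.9% in E13 stomach, to 64.3% in the Sox2 knockout. Colon thus had the fewest promoter peaks and the most peaks overall. Genes with an E13-only promoter included the ribosomal protein genes Rpl6, Rpl12, Rps3 and Rps15, which every cell uses, so a promoter peak was also missing in colon at genes with no tie to the early gut. Of 29 ribosomal protein genes with a window, 24 had a peak in both libraries, 4 in E13 only, 0 in colon only and 1 in neither. Away from gene ends, the 2207 genes with an E13-only promoter and a distal region still had more colon-only than E13-only regions in 72.2% of cases, against 69.9% of all 17076 genes with a distal region.

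The genes behind the promoter classes came from several lists. In most lists a peak in both libraries or in neither was commonest: of 11 pan-epithelial genes with a window 7 had both, 3 E13 only and 0 colon only, and of 9 intestinal transcription factors 4, 4 and 0. Of 15 colon genes 4 had both, 3 E13 only and 2 colon only, and of 10 goblet and secretory genes 1, 3 and 2. Over all genes the shares were 41.7%, 15.0% and 1.77%. Among E13-only promoters were the epithelial keratin Krt8 and the pioneer factor Foxa1, the intestinal factors Isx, Klf4, Gata5 and the bile acid receptor Nr1h4, and the Hox genes Hoxa5, Hoxd10 and Hoxd13. B3galt5, Slc37a2 and Fxyd4 of the colon list were in this class. The secretory fate factor Atoh1, the stem cell genes Ascl2 and Olfm4 and the Wnt feedback gene Axin2 were E13-only too, as were the Hedgehog genes Smo (the signal transducer), Gli2 and Gli3 (its transcription factors), Hhip (a decoy) and Gas1 (a coreceptor). Of 10 Hedgehog genes with a window 3 had both, 5 E13 only, 0 colon only and 2 neither. For 14 stem cell and Wnt target genes these counts were 4, 5, 0 and 5. Colon-only promoters included Guca2a, Agr2, the mucus protein Fcgbp, the mucin Muc3, the peptidase Enpep, the Notch modifier Lfng and Igf2bp2, an RNA-binding protein.

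Base composition differed between the promoter classes. The median number of CpG sites per 300-base window was 23 where both libraries had a peak, 19 in the 3155 E13-only windows, 11 in the 387 colon-only windows and 4 in windows without a peak. Median GC content was 62.3%, 62.0%, 55.7% and 48.7% in the same order. GGGCGG on either strand stood in 65.0% of E13-only and 46.0% of colon-only windows, beside 46.7% of all 21044 windows. CCGGAAG, a core that ETS factors bind, stood in 22.1% of windows with both peaks, 11.9% of E13-only and 6.98% of colon-only windows, beside 11.7% of all. TGANTCA, bound by AP-1, went the other way, with 4.15% (3.51 to 4.91) of E13-only and 11.1% (8.35 to 14.6) of colon-only windows, beside 7.04% of all. TTTATG, the core of CDX sites, stood in 6.02% (5.24 to 6.91) and 9.30% (6.80 to 12.6), and TGTGGTT, of RUNX sites, in 3.01% and 7.24%. The shares over all windows were 9.71% and 4.74%, and windows with no peak, the poorest in GC, had TTTATG in 15.1%, TGTGGTT in 6.58% and TGANTCA in 10.1%. These motifs were searched on both strands, may overlap one another, and differ between the classes together with GC content, whose part was not tested.

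The other libraries, which the classing did not use, held the classes to very different degrees. E13-only regions had a peak in 44.0% of cases in E13 stomach (43.6 to 44.4) and in 16.2% in E16 intestine (15.85 to 16.47). Colon-only regions reversed this, with 5.63% in E13 stomach (5.49 to 5.77) and 34.7% in E16 intestine (34.4 to 35.0). Hindstomach had 27.6% of E13-only and 29.0% of colon-only regions, and forestomach 19.5% and 22.7%. The Sox2 knockout, an E16 library by its label, had 47.7% of E13-only and 5.80% of colon-only regions, values next to those of E13 stomach. None of the other 5 libraries had a peak in 40.8% of E13-only regions, 51.2% of colon-only regions and 6.004% of shared regions, while all 5 had one in 53.8% of shared regions. Within gene ends E13-only regions recurred in 84.8% in the knockout, 74.3% in E13 stomach and 28.95% in E16 intestine. Isolation by trypsin was common to both E13 libraries and EDTA to colon, E16 intestine and hindstomach, so the stage and the isolation cannot be told apart here either.

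**Figure D3:**
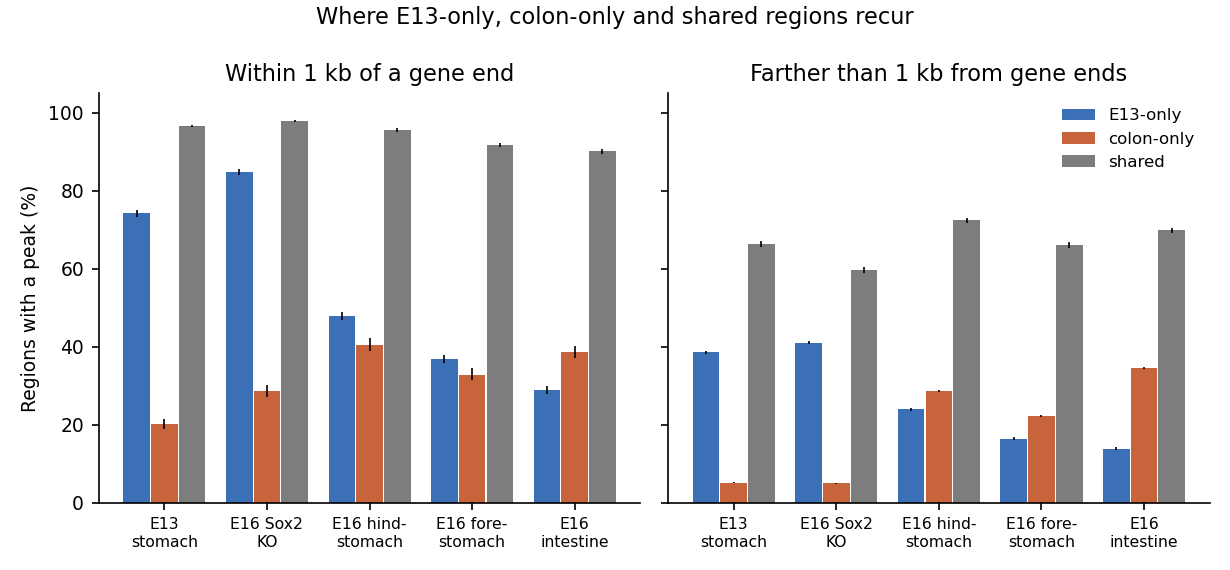
Share of E13-only, colon-only and shared regions (y axis, %) that have a peak in each of 5 libraries not used for the classing (x axis), within 1 kb of gene ends (left) and farther away (right), with 95% Wilson intervals. Away from gene ends E13-only regions recur in 38.6% in E13 stomach and 13.9% in E16 intestine, colon-only regions in 5.12% and 34.6%.

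Each region was next given to its closest coding gene, up to 100 kb away, which placed 80.1% of regions at 19705 genes. More colon-only than E13-only regions were found at 58.8% of genes, the reverse at 21.1%, and equal numbers at 20.1%. The median over all genes of log2((colon-only + 0.5)/(E13-only + 0.5)), called the log2 region ratio below, was 0.65. A gene was counted as leaning when 1 class exceeded the other by at least 2 regions and the ratio was at least 1 in size on the log2 scale. By this count 5939 genes (30.1%) leaned to colon and 1113 (5.65%) to E13. The order turned at equal list length, with 2033 genes to colon and 3065 to E13 for the widest peaks, and 1970 and 3556 after random thinning. These settings removed colon peaks only, so colon-only regions were lost and shared regions became E13-only. After thinning E13-only regions rose from 52533 to 63878 and shared ones fell from 27213 to 16458. A move towards E13 was thus set by construction, and only its size can be read. For most genes named below the colon excess (colon-only minus E13-only regions) with the widest peaks and after thinning is therefore given below as a pair of values at equal list length, or stated to keep its sign; where neither is given, the counts are raw. Gene length mattered as well: with the genes in 4 equal parts by body length, 20.3% of the shortest part and 46.3% of the longest leaned to colon.

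The largest raw colon excesses belonged to very long genes. Cdh13, a cadherin of 1185 kb, had 17 E13-only, 95 colon-only and 1 shared region, Sox5, a developmental transcription factor, had 20, 94 and 16, and the 8 such genes had a median body of 1121 kb against 17.3 kb for all coding genes. At equal list length the excess was 32 and 39 for Cdh13 and 35 and 32 for Sox5. Among genes with a body under 50 kb Gas8, a gene of motile cilia, led with 5, 27 and 1, but its excess of 22 was 1 with the widest peaks and 12 after thinning. Plppr4, a gene of neurons, had 5, 20 and 1 (8 and 4 at equal length). Irf2bp2, a transcriptional corepressor, had 4, 19 and 6 (7 and 3), and its sign turned with extended gene bodies. Anxa2, a membrane-binding protein of epithelia, had 0 E13-only, 18 colon-only and 4 shared regions, and kept an excess of 12 with the widest peaks and 9 after thinning. Lmo4, a LIM cofactor of epithelial transcription factors, had 3, 23 and 5, and excesses of 7 and 8 at equal length. Ets2, a factor downstream of growth-factor signals, had 6, 21 and 5, with 8 and 0.

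In the other direction excesses were smaller, up to 10 regions, and all named below kept their sign in each of 8 settings tried. Both equal-length settings cut only the colon list, so they could not shrink or turn an excess to E13. The kept sign therefore says something only for the other settings. Macroh2a1, which encodes a histone variant of silent chromatin, had 12 E13-only, 2 colon-only and 0 shared regions. Wls, the carrier that Wnt ligands need for secretion, had 10, 2 and 6. Trp63, a p53 relative that directs squamous fate, had 11, 3 and 2, an excess to E13 of 8 that was 11 with the widest peaks and 9 after thinning. Fgfr3, a growth-factor receptor, had 7, 1 and 0. Crb2, an apical polarity protein, had 7, 1 and 1, and Cpeb2, a regulator of translation, had 10, 3 and 2.

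Intestinal transcription factors had no member with more E13-only than colon-only regions: 15 of 17 had more colon-only regions and 2 had equal numbers. Their median log2 region ratio was 0.74, near the 0.65 of all genes, with 62 E13-only, 134 colon-only and 45 shared regions in all. Cdx2 (chromosome 5, 147300900 to 147307249) had 1 E13-only, 2 colon-only and 5 shared regions, so most of its regions were common to both libraries, and its excess of 1 was 0 and -1 at equal list length. Both colon-only regions lay about 8 kb beyond the far end of the gene, 8255 and 7884 bp away, and each also had a peak in forestomach, hindstomach and E16 intestine but in neither E13 library nor the knockout. The E13-only region, 727 bp from the same end, had a peak in E13 stomach and in no other library. Cdx1, its partner in intestinal identity, had 0, 2 and 1, with excesses of 1 and 1 at equal length. Gata6, a GATA factor of endoderm, had 1, 18 and 4, and its excess was 6 with the widest peaks and 11 after thinning. Prdm1, which holds the fetal epithelium in its immature state, had 5, 14 and 3, with excesses of 2 and 5. Maf had 4, 13 and 5, with excesses of 0 and 2, and its sign turned when gene bodies were extended by 10 kb. Over 8 settings the list's median minus that of all genes ran from -0.36 to 0.25.

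Colon genes held 52 E13-only and 93 colon-only regions, with 14 members to colon, 5 to E13 and 2 equal, and a median ratio of 0.74. Muc2, the gel-forming mucin of goblet cells, had 0 E13-only, 7 colon-only and 1 shared region, with excesses of 3 and 1 at equal list length. Muc3, a membrane mucin of the brush border, had 1, 8 and 1, with excesses of 3 and 5. B3galt5, a glycosyltransferase, had 3, 11 and 0, with excesses of 6 and 0. Slc37a2, a sugar-phosphate transporter gene, went the other way, with 4 E13-only regions and no others, and Car1, a carbonic anhydrase of colonocytes, had 5, 3 and 0.

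Genes of mature cell types mostly had more colon-only regions, as did the genome. Enterocyte genes had 57 E13-only and 97 colon-only regions (18 members to colon, 6 to E13, 2 equal; median 0.69). Slc5a1, the sodium-glucose carrier, had 2 E13-only and 9 colon-only regions, with excesses of 2 and 5 at equal length. Sis and Mttp, a sugar-digesting enzyme and a lipid-loading protein, each had 0 and 5, and Lct, lactase, had 0 and 3. Goblet and secretory genes had a higher median, 1.11, with 11 members to colon, 3 to E13 and 2 equal, and 29 against 67 regions. Atoh1, which commits cells to the secretory fate, had 2 E13-only, 6 colon-only and 4 shared regions beside its E13-only promoter peak. Clca1 (2 and 7) and Creb3l1 (2 and 7) leaned to colon, with excesses of 1 and 4, and of 2 and 2, at equal length, while the goblet peptide gene Tff3 had 2 E13-only regions and none in colon. This list's median minus that of all genes was 0.46, but it ran from -0.24 to 0.49 over 8 settings.

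Both Hox lists had a lower median region ratio than all genes. They are short, with median bodies of 3.83 kb (posterior) and 3.82 kb (anterior and central), and the shorter genes, in both lower parts of 4 by body length, had a median log2 region ratio of 0 rather than 0.65. Anterior and central Hox genes had 34 E13-only and 25 colon-only regions, with 6 members to colon, 12 to E13 and 1 equal, and a median ratio of -1.14 where all genes had 0.65. The difference from all genes, -1.79, ran from -2.07 to -1.22 over 8 settings and kept its sign in each. Posterior Hox genes, which pattern the hindgut, had 19 and 20 regions, 3 members to colon, 6 to E13 and 3 equal, and a median of -0.79. Their difference of -1.44 became 0.25 when only the wider peaks of each list were kept, a setting chosen after the data were seen. Away from gene ends the medians were -0.24 for the anterior and central and 0 for the posterior list, beside 1.10 for all genes.

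Counted over whole clusters, peaks need no assignment to genes. In the Hoxa cluster E13 intestine had 13 peaks and colon 7, in Hoxc 8 and 4, and in Hoxd 15 and 7, although the colon list was longer overall. The Hoxb cluster had 15 in each. By covered bases the contrast was smaller in Hoxa (1465 bp in E13 intestine, 1261 bp in colon) and Hoxd (1435 and 1274 bp). Hoxc had 964 and 349 bp, and in Hoxb colon had more, with 1810 and 2223 bp. E16 intestine had 5, 10, 3 and 6 peaks in Hoxa, Hoxb, Hoxc and Hoxd; in Hoxa and Hoxc these were the fewest of the 7 libraries. The Hoxd cluster also differed within E13, with 15 peaks in intestine (1435 bp) and 5 in stomach (1099 bp). Classed as regions, Hoxd had 12 E13-only, 4 colon-only and 3 shared, Hoxa 11, 5 and 2, Hoxc 7, 3 and 1, and Hoxb 12, 12 and 3.

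**Figure D4:**
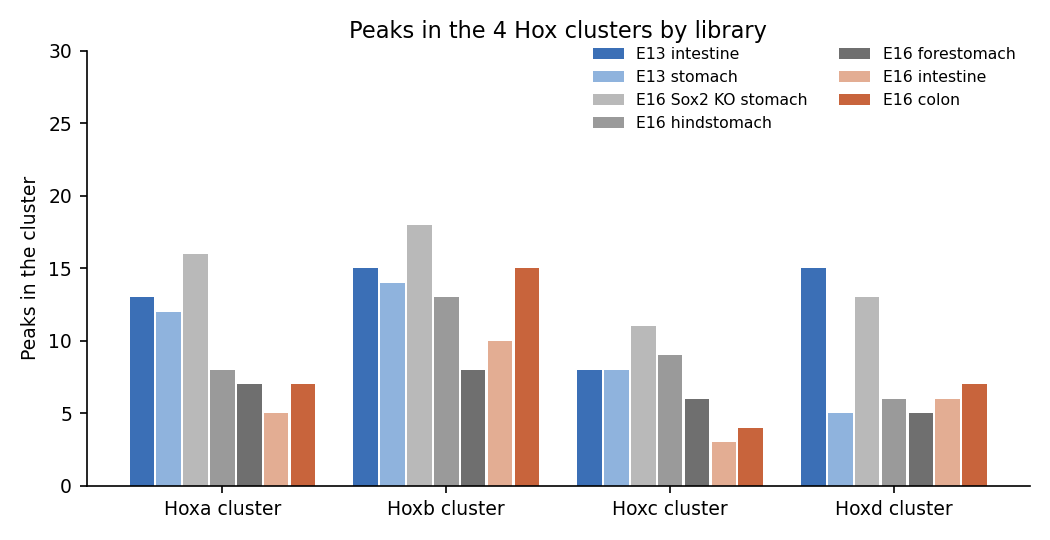
Number of peaks (y axis) in each of the 4 Hox clusters (x axis), from the first to the last Hox gene, in the 7 libraries. In Hoxd, E13 intestine has 15 peaks, colon 7 and E13 stomach 5; in Hoxb, E13 intestine and colon both have 15.

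Region counts at the 4 HOX13 genes were as follows. Hoxd13 had 1 E13-only region over its start and 1 shared region 1512 bp beyond the gene, which also had a peak in hindstomach and the knockout. Hoxc13 had 3 E13-only and 6 colon-only regions, with excesses of 0 and 2 at equal list length. Hoxb13 had 1 E13-only region of 66 bp, 8 bp from the gene, against 5 colon-only regions between 6264 and 34826 bp away. Of those 5, the farthest, at chr11:96231436-96231775 and 339 bp wide, had a peak in all 4 wild-type E16 libraries, and 2 were seen in colon alone. Hoxb13 kept an excess of 2 in both equal-length settings. Hoxa13 had 2 E13-only and 2 colon-only regions, of 62 to 147 bp. Hoxd10, another posterior gene, had 2 E13-only regions and no others. Members of the anterior and central list with the largest E13 excess were Hoxb3 (5 E13-only, 2 colon-only), Hoxd3 (5 and 2) and Hoxa3 (4 and 1). The equal-length settings cut only the colon list and could not turn this direction, but Hoxd3 turned to colon when only wider peaks were kept. Hoxd1 went the other way, with 1 and 5, and had excesses of 1 and 1.

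Signalling genes also had more colon-only than E13-only regions by raw count. Median bodies were long, at 73.5 kb for stem cell and Wnt targets, 69.5 kb for Hedgehog and 69.0 kb for BMP and TGF-beta genes. In the longest of 4 equal parts of all genes, 80.2% had more colon-only regions and the median ratio was 0.92. Over all genes these values were 58.8% and 0.65. Stem cell and Wnt target genes had 19 members to colon, 1 to E13 and 1 equal, with 109 E13-only and 203 colon-only regions and a median of 0.74. Lgr5, a receptor of crypt stem cells, had 8 E13-only, 18 colon-only and 3 shared regions, though at equal length its excess was 0 and 3. Tcf7l2, the Wnt effector of the intestine, had 8, 25 and 8, and its excess of 17 was 4 and 3. Lrig1, a brake on growth-factor receptors in stem cells, had 3, 12 and 4, with 3 and 2, and Sox9, a crypt base factor, had 5, 14 and 5, with 1 and 4. The Sox9 sign turned with extended gene bodies. Tcf7, a related Wnt factor, was the member to E13, with 3 and 2.

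Hedgehog pathway genes had 11 members to colon, 1 to E13 and 2 equal (median 0.78, 88 and 153 regions). Shh, the ligand whose locus drives the Cre, had 5 E13-only, 8 colon-only and 5 shared regions, and its excess of 3 was 1 with the widest peaks and -3 after thinning. Ihh, the other ligand of gut epithelium, had 1, 0 and 2. Among the receptors and brakes, Ptch1 had 4 E13-only and 11 colon-only regions and Hhip 10 and 18, and of the transcription factors Gli2 had 18 and 30 and Gli3 16 and 20. At equal list length the Hhip excess of 8 was 0 and 1, and the Gli2 excess of 12 turned to -1 and -2. Of the pathway's E13-only regions 71.6% had a peak in the Sox2 knockout, beside 53.2% of E13-only regions at all genes. Among the gene lists this share ran from 21.1% (posterior Hox genes) to 80.5% (ribosomal protein genes), with 69.8% for pan-epithelial and 68.3% for Notch pathway genes. A high share was thus not particular to the Hedgehog pathway. BMP and TGF-beta genes had 21 members to colon, 2 to E13 and 1 equal (median 0.83). Their colon excess was led by Tgfbr2 (3 and 16), Smad3 (4 and 16), Nog (5 and 15), a BMP antagonist, and Smad2 (3 and 13). At equal length their excesses were 0 and 9 for Tgfbr2, 6 and 4 for Smad3, 3 and 6 for Nog, and 7 and 6 for Smad2. Nog's sign turned with extended gene bodies. Id3, a target of BMP signals, had 1 E13-only and 10 colon-only regions, and Bmp4 had 6 and 14.

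Notch pathway genes had a median of 0.43, below that of all genes in each of 8 settings, with differences from -0.74 to -0.15. They counted 11 members to colon, 4 to E13 and 3 equal. The receptor Notch1 had 4 E13-only and 2 colon-only regions and Notch3 6 and 4, while Notch4, the receptor of endothelium, had 0 and 5, with excesses of 1 and 2 at equal length. Of the targets, Hes1 had 11 E13-only, 15 colon-only and 6 shared regions, but its excess of 4 turned to -1 with the widest peaks, -8 after thinning and -2 with extended gene bodies. Hey2 had 1, 8 and 1, with 1 and 4.

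Stomach genes also had colon-only regions. Sox2 (chromosome 3, body of 2.47 kb) had 2 E13-only, 17 colon-only and 1 shared region. The shared region, 66 bp from the gene, had a peak in all 7 libraries, and the colon-only regions lay 9130 to 99494 bp away. Of those 17, 9 were seen in no other library, 3 in all of forestomach, hindstomach and E16 intestine, and 1 in E13 stomach and the knockout. The excess of 15 was 3 with the widest peaks, 6 after thinning and 1 when gene bodies were extended. Foregut regulators as a list had 11 members to colon, 0 to E13 and 2 equal (median 1.22), but the difference from all genes turned to -0.49 with extended gene bodies and to -0.022 away from gene ends. Glandular stomach genes had 11 to colon, 0 to E13 and 4 equal (median 1.58, 18 and 50 regions), with Lipf, a gastric lipase, at 0 and 6, and 5 and 4 at equal length. A ratio of 1.58 is also that of a gene with 0 E13-only and 1 colon-only region, such as Muc5ac. Of the 15 members 4 (26.7%) leaned to colon, beside 30.1% of all genes. This list's difference from all genes, 0.93, ran from 0 to 1.10 over 8 settings. Squamous epithelium genes had 8, 3 and 5 (median 0.33), with Trp63 as the gene that leaned furthest to E13.

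Constitutive and proliferation genes had nearly equal numbers of both classes. Ribosomal protein genes had 41 E13-only, 37 colon-only and 43 shared regions, 7 members to colon, 15 to E13 and 17 equal, and a median of 0, a difference from all genes of -0.65 that kept its sign in all 8 settings. Their median body was 3.27 kb, and the shortest of 4 equal parts of all genes also had a median of 0. Cell cycle genes had 31 and 32 regions, with 4 members to colon, 3 to E13 and 12 equal, but away from gene ends 8 to colon, 1 to E13 and 2 equal (median 0.74). Cdk1, the kinase that starts mitosis, had 5 and 10, with excesses of 1 and -2 at equal length. Plk1, a mitotic kinase, had 3 E13-only regions and no others, and Top2a and Birc5 each had 2 E13-only and 0 colon-only. The equal-length settings, which cut only the colon list, could not turn this direction. The list of fetal genes around Lin28, only part of which encode RNA-binding proteins, had 4 members to colon, 5 to E13 and 2 equal. Igf2bp2, a member of that group, had 1 E13-only and 11 colon-only regions, with excesses of 5 and 6 at equal length, while Igf2bp3 had 5 and 3. Lin28b had 5 and 9, with 1 and -1.

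**Figure D5:**
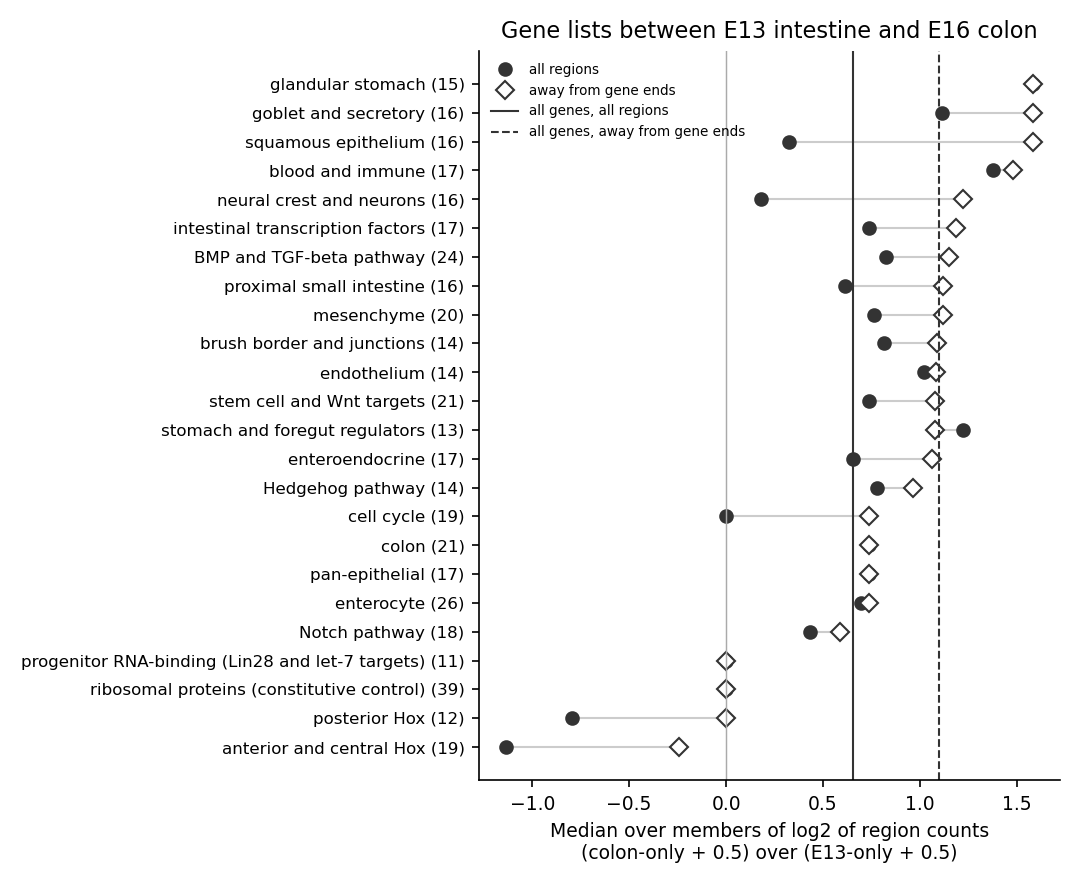
Median log2 region ratio (x axis, positive towards colon) of 24 gene lists (y axis, number of members with a region in brackets), over all regions (filled circles) and away from gene ends (open diamonds). Vertical lines mark the medians of all genes, 0.65 and 1.10; the anterior and central Hox list lies lowest, at -1.14 and -0.24.

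The labelled cell type was checked with marker genes. All 6 epithelial markers (Epcam, Cdh1, Krt8, Krt18, Krt19, Cldn7) had regions in both libraries, 31 in E13 intestine and 40 in colon, and so did the 5 intestinal markers, with 23 and 34, and the 4 colon and hindgut markers, with 14 and 27. Colon also had more regions over all genes, where 43323 were E13-only, 82987 colon-only and 24160 shared. A higher colon count at a marker set is thus the general direction. Among epithelial genes Cdh1 (2 E13-only, 7 colon-only, 5 shared) and Epcam (3, 9 and 6) leaned to colon, but Cdh1 had an excess of -1 with the widest peaks and Epcam of -3 after thinning. Markers of other cell types had regions too. Mesenchyme markers had 23 in E13 intestine (3 to 6 per gene) and 30 in colon (2 to 11), with no promoter peak in either library among the 3 with a window. Blood and immune markers had 8 (0 to 3 per gene) and 26 (0 to 16), with Hba-a1 at 0 in both and Gata1 at 0 in E13, and again no promoter peak among 3 windows. Endothelial markers had 12 (1 to 6) and 35 (2 to 16), and neural markers 22 (1 to 12) and 30 (0 to 13), with Sox10 at 0 in colon. Promoter peaks stood at 1 of 2 endothelial windows (Kdr) and 1 of 1 neural windows (Elavl4) in E13 intestine and at none of these in colon. The epithelial markers had promoter peaks at 4 of 4 windows in E13 intestine and 2 of 4 in colon, the intestinal markers at 3 of 3 in both, and the colon and hindgut markers at 1 of 2 in E13 intestine and 0 of 2 in colon.

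The blood and immune list was the one of these whose median stood above that of all genes in each of 8 settings. It had 14 members to colon, 0 to E13 and 3 equal, with 26 E13-only, 103 colon-only and 10 shared regions, and a median of 1.38. More colon-only regions were thus found at 82.4% of members, beside 58.8% of all genes, and 52.9% leaned to colon, beside 30.1%. Spi1 had 2 E13-only and 2 colon-only regions and Tal1 3 and 4, while the genes named next had the largest excesses. Runx1, a factor of blood stem cells that some epithelia also use, had 4, 31 and 4 and kept excesses of 20 and 15 at equal length. Ptprc, the leukocyte marker CD45, had 3, 16 and 0, with 5 and 8, and the integrins Itgam (1 and 8) and Itgal (0 and 6) each had excesses of 4 and 5. Of the list's colon-only regions 38.8% had a peak in E16 intestine, beside 35.3% at all genes. Mesenchyme genes had a median of 0.76 and endothelial genes 1.02, and the part of other cell types in the colon-only regions was not tested. With only peak lists, a few cells of another type and weak signal in epithelial cells cannot be told apart.

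A pair of comparisons that share these libraries gives the values side by side. From E13 to E16 small intestine 50932 regions were E13-only, 68619 E16-only and 28453 shared (Jaccard index 0.192), and between E16 small intestine and colon 38754, 77063 and 57862 (0.333). The E13 intestine to colon index, 0.145, was the lowest of the 3. The index depends on list length, and the lists held 81179 (E13 intestine), 97568 (E16 small intestine) and 135743 (colon) peaks. The other comparisons were not repeated at equal length. Gene-end shares were 13.3% of E13-only and 5.01% of E16-only regions in the small intestine comparison. Anterior and central Hox genes had 37 E13-only and 13 E16-only regions there (1 member to E16, 15 to E13, 1 equal), beside 34 and 25 for colon. Goblet and secretory genes had 37 and 38, with 6 members to E16 and 8 to E13, beside 29 and 67 for colon. Hedgehog genes had 85 and 93, beside 88 and 153. Enterocyte genes had 56 and 100 in small intestine and 57 and 97 in colon. Over all genes the counts were 41174 E13-only and 54735 E16-only regions for small intestine, beside 43323 and 82987 for colon. The list counts are to be read beside these.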

How the data were processed

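ATAC-seq peak lists of 7 mouse gut libraries, 1 per group, were used. Per the submitters' processing notes, cutadapt, Bowtie2 and MACS2 were used with GRCm38/mm10; versions, thresholds and pooling: not given in the sources used here. Each deposited file lists chromosome, start and end per peak, with no height, score or count. Positions are printed as deposited, since their base (0 or 1) is not recorded. Depth per library is unknown.

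Peaks on chromosomes 1 to 19 and X were merged where they overlapped by at least 1 bp and assigned to RefSeq GRCm38.p6 genes, and promoter sequences come from RefSeq GRCm38.p6 by gene symbol; both tables are not complete. The 24 gene lists hold 440 distinct genes, of which 436 were found. The members, lists and alternatives were chosen with earlier results of these data known. Named genes are 8 fixed ones, the 4 members per list with the largest difference of at least 2 regions, and the 8 largest excesses in each direction over all genes and over genes under 50 kb; a part of them is printed, some are not reported here, and other list members beside them were chosen after their values were seen. The gene table gives no strand, so gene ends stand in for starts. Methods were tested on simulated data. Python 3.11.15, numpy 2.4.6, pandas 2.3.3, scipy 1.17.1 and matplotlib 3.10.9 were used.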

Additional observations from a re-analysis of the deposited data

Results flagged for a closer look

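Peaks on the Y chromosome, which the comparison leaves out, numbered 187 in E13 intestine and 1111 in colon. The other libraries had 69 (Sox2 knockout), 178 (E13 stomach), 565 (forestomach), 639 (hindstomach) and 719 (E16 intestine). They are listed because they lie outside the chromosomes analysed; the labels do not give the sexes of the pooled embryos.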

How the results depend on the processing

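No paired analysis was possible because each group has 1 library, and no library could be left out. At equal list length with the widest peaks, colon-only regions numbered 58603, the Jaccard index was 16.1% and gene ends held 15.9% of E13-only and 38.9% of shared regions. E13 stomach then had 46.0% of E13-only and 7.02% of colon-only regions, E16 intestine 19.4% and 47.8%, genes leaning to colon numbered 2033 and to E13 3065, and colon-only promoters 195. After random thinning colon-only regions numbered 64533 and shared 16458, the index was 11.4%, 18.9% of E13-only regions lay at gene ends, 49.6% of them recurred in E13 stomach and 26.8% in E16 intestine, 1970 genes leaned to colon and 3556 to E13, and 5335 promoters were E13-only and 185 colon-only. With only peaks above each list's median width, a setting chosen after seeing the data, there were 23613 E13-only, 51006 colon-only and 15960 shared regions (index 17.6%), with 23.9%, 4.13% and 47.9% at gene ends. E13 stomach had 66.6% and 11.4% of the unshared classes there, and E16 intestine 31.3% and 53.1%. With an overlap of at least 50% of the shorter peak the index was 13.6%, gene-end shares 15.5%, 3.66% and 37.3%, E13 stomach shares 41.9% and 5.32%, E16 intestine shares 14.9% and 33.7%, and colon-only promoters 473. Joining peaks within 150 bp gave 15.4%, then 12.8%, 2.98% and 34.5%, then 42.6% and 5.04%, and 15.2% for E13-only regions in E16 intestine. Gene-end windows of 5 kb gave 25.3%, 12.3% and 46.2%, and of 500 bp 11.3%, 1.89% and 32.6%. Away from gene ends 603 genes leaned to E13, and with an excess of at least 3 regions 361.

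Of 124 named genes, 73 kept their call with the widest peaks, 73 after thinning and 77 with gene bodies extended by 10 kb. Over all of these, leaning or not, the sign of the excess turned for 10 genes with the widest peaks, 18 after thinning, 14 with extended bodies and 5 with peaks above the median width. Among the genes that leaned as deposited, it turned with the widest peaks for Cck (-1), Sst (-1) and Cdh1 (-1). After thinning this held for Sst (-1), Capn8 (-1), Grhl2 (-4), Epcam (-3), Ezr (-1), Dcn (-1) and Rpl14 (-2). Both of these settings cut only the colon list and can move an excess only towards E13. Extended bodies gave Maf (-1), Sox9 (-1), Sst (-2), Nog (-1), Ehf (-1), Foxf2 (-1), Rpl14 (-2), Irf2bp2 (-1) and Scgb2a2 (1), and peaks above the median width Hoxd3 (1) and Klf7 (2). List medians minus that of all genes turned for foregut regulators (-0.49 with extended bodies, -0.022 away from gene ends) and posterior Hox genes (0.25 with peaks above the median width). The cause was not tested in any of these. Peak heights and read counts were not used here, and each group has 1 library.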

Other observations

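Enteroendocrine genes had 36 E13-only and 63 colon-only regions, with 11 members to colon, 4 to E13 and 2 equal. Neurog3, which starts the endocrine fate, had 0 E13-only and 3 colon-only regions, Gcg, the glucagon gene, 0 and 3, and Insm1, an endocrine factor, 2 and 0. Among junction and brush border genes Cldn23, a claudin, had 2, 12 and 1, and Myo7b, a brush border myosin, had 0, 5 and 2.

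The widest E13-only region was 896 bp, inside Tgfa (chr6:86194982-86195878), and all other libraries except colon had a peak there. The widest colon-only region was 2453 bp (chr9:121929499-121931952), 13.2 kb from Cyp8b1, and all other libraries except E13 intestine had a peak there. All 5 of the widest shared regions, from 2605 to 4601 bp, had a peak in each of the 7 libraries. By chromosome the number of colon-only regions per E13-only region ran from 1.68 on X to 2.46 on chromosome 18.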
